A study of Mus musculus with 6 samples.

Results

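Growth hormone signalling was read out through 8 genes in the inguinal fat of mice, a subcutaneous white depot in the groin. The genes were Ghr, Jak2, Stat5a, Stat5b, Socs2, Socs3, Cish and Bcl6. They were taken by gene symbol from a table of 14861 genes, and 8 of 8 were present. The study compared 3 Flox mice with 3 AdIGF1RKO mice. Flox mice carry a floxed Igf1r gene (the strain B6;129-Igf1rtm2Arge/J) and were littermates of the knockouts. AdIGF1RKO mice carry the same floxed gene together with Cre recombinase under the adiponectin promoter, from the Adipoq-Cre transgene of a B6 and FVB background. Cre is therefore driven in adipocytes, while the whole tissue, with its vessels, immune cells and precursors, was sequenced. For 24 weeks both groups received a normal chow diet that supplied 10% of calories as fat, and an overnight fast preceded the collection of tissue. Sex and age are not given in the labels.

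Growth hormone, secreted by the pituitary, binds the receptor GHR on the cell surface. The kinase JAK2, bound to the receptor, then phosphorylates the transcription factors STAT5A and STAT5B, which enter the nucleus and switch on target genes. Among these targets are Socs2, Cish and, in some settings, Socs3, whose protein products dampen the receptor's signal, and Igf1, the ligand of the receptor deleted here. BCL6 is a transcriptional repressor that can bind DNA sites similar to those of STAT5. In fat, growth hormone is known for raising lipolysis and for restraining lipid storage.

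The STAT5 consensus is the palindrome TTCNNNGAA, which reads the same on either strand. It was searched in RefSeq promoter windows of build GRCm38.p6, each from 250 bases before to 50 bases after a transcription start. Windows were at hand for 7 of the 8 genes, Socs2 being the one without. The letters occurred in the windows of Cish, Socs3 and Bcl6, and in none of the windows of Ghr, Jak2, Stat5a and Stat5b. Of all 32851 promoter windows, 8.30% held the motif and 0.457% held it 2 or more times. The stretches below show these matches, because Cish, Socs3 and Bcl6 are the members read out as targets or partners of STAT5. Each is 30 bases long, 5′ to 3′ on the gene's strand, with the motif in capitals. Cish held 2 copies within 20 bases of its start (plus strand, chr9:107296649-107296678), and Bcl6 held 1 copy in its first window and 3 in its second.
Cish: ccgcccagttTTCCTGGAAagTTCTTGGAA
Socs3: gaaaccagccTTCTTAGAAgggaggggggg
Bcl6, first window: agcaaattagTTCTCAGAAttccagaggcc
Bcl6, second window, copy 1: aggccgcggcTTCCTGGAAagttacttctc
Bcl6, second window, copy 2: ggcaggagtgTTCTGTGAAatccttagagc
Bcl6, second window, copy 3: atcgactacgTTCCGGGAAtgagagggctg
The other stretches lie on the minus strand, at chr11:117969501-117969530 for Socs3, at chr16:23988951-23988980 for the first window of Bcl6, and at chr16:23981432-23981461, chr16:23981386-23981415 and chr16:23981352-23981381 for the second. A match of letters is a description of the sequence and does not show binding in this tissue.

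Levels are given as scaled CPM, reads per 1000000 reads of a library of geometric mean size after median-ratio scaling. They are not divided by gene length, so levels are compared between mice and not between genes. Differences are AdIGF1RKO minus Flox on the log2(scaled CPM + 1) scale, with limma's moderated test over all 12993 genes with a mean of at least 1 scaled CPM. The libraries held 60617147 to 70695527 reads. Fat markers were abundant in all of them, with the summed level of 10 adipocyte markers between 47480 and 65829 scaled CPM. Skeletal muscle markers, of which 21 of 23 were in the table, took 13.6% of the reads of Flox 3 and 4.93% of those of AdIGF1RKO 3, and between 0.0568% and 0.950% of the other 4 libraries. In AdIGF1RKO 2 the summed level of 8 lipid-associated macrophage markers was 754 scaled CPM, against 264 to 287 in the other libraries. Results for the 8 genes, and for some of the pathway genes, are also given with 1 of these 3 libraries left out. Since this is whole tissue, fewer cells of a type and less RNA per cell cannot be told apart.

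The targeted gene Igf1r had 6.44, 6.47 and 5.86 scaled CPM in Flox mice and 6.11, 5.27 and 4.85 in AdIGF1RKO, and the groups overlapped. Its log2 difference was -0.18 (standard error 0.12, limma adjusted p = 0.998). Levels are given per gene, so the floxed part cannot be seen apart from the rest of Igf1r.

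None of the 8 growth hormone and STAT5 genes differed between the groups by the limma test. With adjusted p-values and a threshold of 0.05 the count was 0 of 8, against 0% of all tested genes, and at an unadjusted p under 0.05 it was also 0 of 8, against 2.96% of all tested genes. The members' log2 differences were negative for 6 genes and positive for 2, with a median of -0.11. Over all tested genes 55.2% were negative and the median was -0.02. The members' limma adjusted p was 0.998 for each. The quasi-likelihood test of edgeR, run on recovered reads, called 0 of the 8, against 0% of all tested genes, with Stat5a at an unadjusted p of 0.049. DESeq2 called 0 of the 8, against 0.178% of all genes it tested, and had none of them at an unadjusted p under 0.05.

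**Figure D1:**
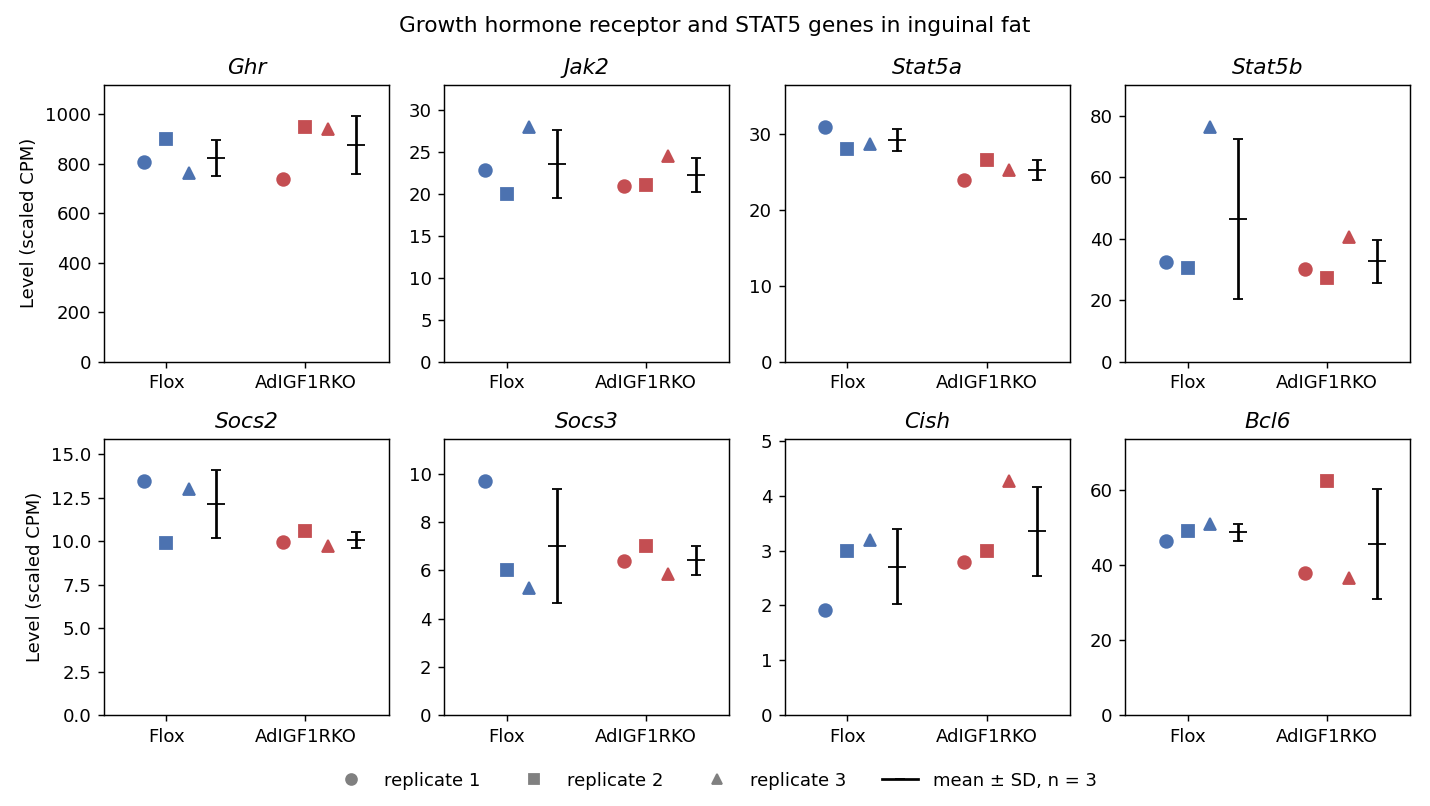
Level of each of the 8 genes in scaled CPM (y axis, from 0, a separate scale per gene) in the 3 Flox (blue) and 3 AdIGF1RKO (red) libraries, with the symbol giving the replicate number and the bar the mean ± SD. Stat5a is the gene whose groups do not overlap, and Stat5b stands at 76.4 in Flox 3 against 30.6 and 32.5 in the other Flox libraries.

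Ghr, the growth hormone receptor gene, also gives rise to the soluble growth hormone binding protein, and the table does not separate these transcripts. It had 805, 901 and 762 scaled CPM in Flox mice and 739, 947 and 941 in AdIGF1RKO. The lowest and the highest value both came from AdIGF1RKO mice, so the Flox mice lay within the AdIGF1RKO range. The means were 822 ± 70.9 in Flox and 876 ± 118 in AdIGF1RKO (SD, n = 3 each). On the log2 scale AdIGF1RKO was higher by 0.08 (standard error 0.13). Its 95% interval, expressed as a fold of value + 1, ran from 0.847 to 1.33. It was -0.03 without Flox 3 and AdIGF1RKO 3, and 0.02 to 0.20 with each library left out in turn. With 36778 reads or more in every library, Ghr was the member with the most reads.

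Jak2, the kinase that the receptor activates, had 22.9, 20.0 and 28.0 scaled CPM in Flox mice and 21.0, 21.1 and 24.5 in AdIGF1RKO. The highest value was in Flox 3 and the second highest in AdIGF1RKO 3, the libraries rich in muscle RNA. The remaining 4 values lay between 20.0 and 22.9 with the groups overlapping. The log2 difference was -0.07 (standard error 0.14), with a 95% fold interval from 0.746 to 1.21. It was 0.05 without Flox 3, -0.02 without Flox 3 and AdIGF1RKO 3, and 0.00 with the muscle markers as a covariate.

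Stat5a encodes one of the closely related STAT5 proteins. It was the member with the smallest p and the member whose groups did not overlap. The Flox mice had 31.0, 28.1 and 28.8 scaled CPM and the AdIGF1RKO mice had 23.9, 26.6 and 25.3, so that every AdIGF1RKO value lay below every Flox value. Means were 29.3 ± 1.51 and 25.3 ± 1.33 (SD, n = 3 each), a ratio of 0.863. Their log2 difference was -0.20 (standard error 0.09), and the 95% fold interval ran from 0.746 to 1.010. The unadjusted limma p was 0.0627 and the adjusted p was 0.998. Among all tested genes, 3.86% had groups that did not overlap with AdIGF1RKO lower, and Stat5a was 1 of 8 members. Without each library in turn the log2 difference lay between -0.24 and -0.16. With muscle markers as a covariate it was -0.20. Under the authors' own scaling it was -0.36, against a median of -0.17 over all tested genes, and with equal library sums it was -0.09, against a median of 0.09. STAT5A is also known for its part in mammary epithelium. Of 11 mammary markers 3 were in the table, with a summed level of 0.755 to 6.54 scaled CPM in Flox and 0.945 to 5.37 in AdIGF1RKO, and their part in the level of Stat5a was not tested. In the reference annotation the end of Stat5a overlaps Stat3 on the opposite strand. The libraries were stranded, but whether the authors counted by strand is not given in the sources used here.

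Stat5b, the neighbouring paralogue, encodes the STAT5 protein known for male-specific growth hormone responses in liver. It had 32.5, 30.6 and 76.4 scaled CPM in Flox mice and 30.3, 27.1 and 40.6 in AdIGF1RKO. Flox 3 stood far above the others and AdIGF1RKO 3 came next, while the other 4 libraries lay between 27.1 and 32.5. The group means, 46.5 ± 25.9 and 32.7 ± 7.03 (SD, n = 3 each), rest on these 2 libraries. The log2 difference was -0.39 (standard error 0.36), the largest of the 8 in size, with a 95% fold interval from 0.418 to 1.40. Without Flox 3 it was 0.03, and without Flox 3 and AdIGF1RKO 3 it was -0.13 (standard error 0.12). With muscle markers as a covariate it was -0.19 (standard error 0.21). Of the 21 muscle markers in the table, 15 were highest in Flox 3, 5 in AdIGF1RKO 3 and 1 in Flox 1. The part of muscle RNA in the level of Stat5b was not tested beyond these values.

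The ratio of Stat5a to Stat5b within a library does not depend on the scaling between libraries. It was 0.952, 0.918 and 0.377 in Flox and 0.790, 0.980 and 0.623 in AdIGF1RKO. The lowest ratios were those of Flox 3 and AdIGF1RKO 3, and the groups overlapped (two-sided exact permutation test on log2 ratios, p = 0.8, where 0.1 is the smallest p that 3 against 3 allows). These 2 proteins are similar in sequence, and how reads shared by both genes were assigned is not given.

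**Figure D2:**
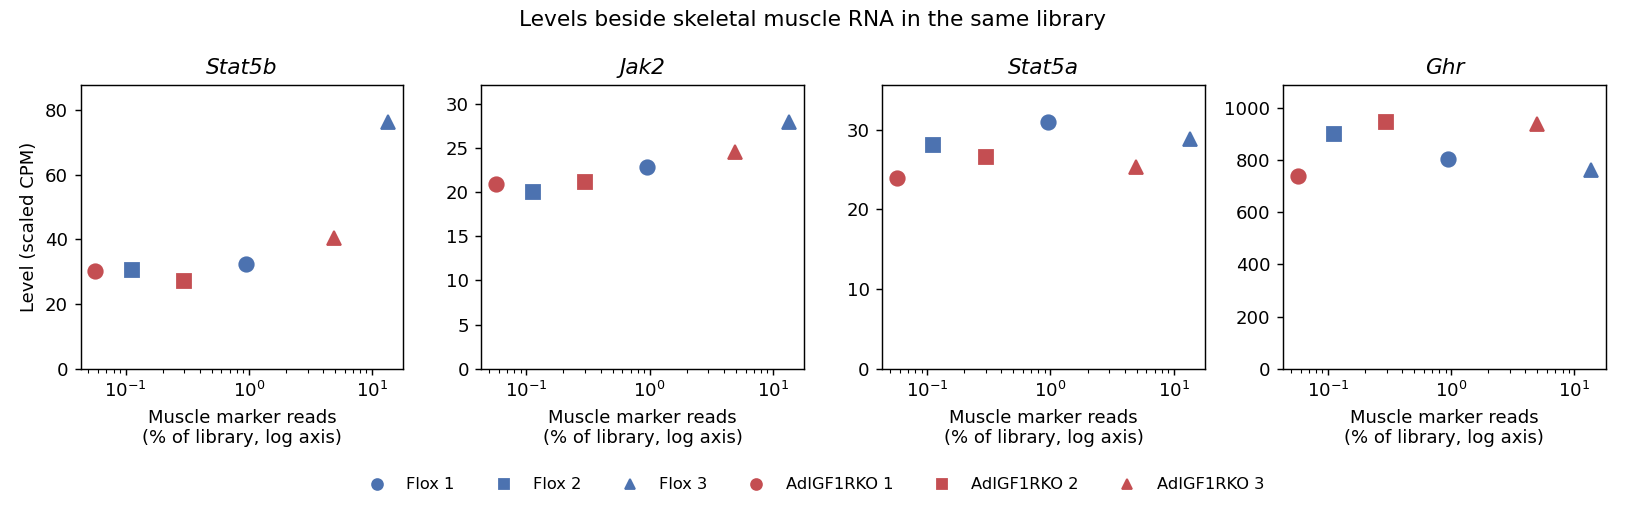
Level in scaled CPM (y axis, from 0) of Stat5b, Jak2, Stat5a and Ghr against the percentage of the library's reads in skeletal muscle markers (x axis, log scale), 1 point per library, blue for Flox and red for AdIGF1RKO. Stat5b and Jak2 are highest in Flox 3 (13.6% muscle reads) and next in AdIGF1RKO 3 (4.93%), and Ghr and Stat5a are not.

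Socs2, a target of STAT5 whose product limits growth hormone action, had 13.5, 9.92 and 13.0 scaled CPM in Flox mice and 9.93, 10.6 and 9.71 in AdIGF1RKO. Flox 1 and Flox 3 lay above all AdIGF1RKO mice, while Flox 2 lay among them. The means were 12.1 ± 1.93 and 10.1 ± 0.451 (SD, n = 3 each), a ratio of 0.830. This is a log2 difference of -0.24 (standard error 0.14, limma unadjusted p = 0.133), and the 95% fold interval ran from 0.675 to 1.07. Without Flox 2 it was -0.36 (unadjusted p = 0.0251, adjusted p = 0.923), and over the other left-out libraries it lay between -0.27 and -0.16. Each value rests on 616 to 954 reads.

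Cish, another STAT5 target and feedback inhibitor, and the gene with a pair of STAT5 motifs at its start, had a difference of opposite sign to that of Socs2. Its values were 1.92, 2.99 and 3.19 scaled CPM in Flox mice and 2.79, 2.98 and 4.27 in AdIGF1RKO. The lowest value was in Flox 1 and the highest in AdIGF1RKO 3, and the other 4 libraries lay between 2.79 and 3.19. The means were 2.70 ± 0.683 and 3.35 ± 0.805 (SD, n = 3 each). The log2 difference of 0.23 had a standard error of 0.21, and the 95% interval, as a fold of value + 1, ran from 0.830 to 1.67. At this low level the difference depends on the added 1: it was 0.29 with 0.25 added and 0.12 with 5 added. On recovered reads edgeR and DESeq2 each gave 0.31. In the main fit the difference was 0.07 without Flox 1, 0.09 without AdIGF1RKO 3, and 0.29 to 0.33 with any other library left out. Cish had the fewest reads of the 8 genes, 136 to 271 a library, so that counting error weighs more on it than on the others. The reference annotation places 2 genes, a pseudogene and an antisense RNA, on the opposite strand of Cish, and 1 predicted gene opposite Bcl6.

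Socs3, which is induced by many cytokines through STAT3 as well as by growth hormone, had 9.71, 6.02 and 5.28 scaled CPM in Flox mice and 6.41, 7.01 and 5.83 in AdIGF1RKO. Flox 1 stood above the rest, and the AdIGF1RKO values lay within the Flox range. The log2 difference was -0.07 (standard error 0.22), with a 95% fold interval from 0.663 to 1.36. Without Flox 1 it was 0.16 (standard error 0.15). Immediate early genes, which respond to handling and stress, had a summed level of 593 scaled CPM in Flox 1 and 441 to 673 over all libraries, and their part in the level of Socs3 was not tested.

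Bcl6, the repressor, had 46.4, 49.0 and 50.8 scaled CPM in Flox mice and 37.7, 62.4 and 36.6 in AdIGF1RKO. The Flox mice lay close together, between the high value of AdIGF1RKO 2 and the low values of AdIGF1RKO 1 and AdIGF1RKO 3. The coefficient of variation was 4.58% in Flox and 31.97% in AdIGF1RKO. The log2 difference was -0.14 (standard error 0.21), with a 95% fold interval from 0.642 to 1.29. Without AdIGF1RKO 2 it was -0.38 (standard error 0.10, limma unadjusted p = 0.0101, adjusted p = 1.00), and without Flox 3 and AdIGF1RKO 3 it was 0.03. AdIGF1RKO 2 is the library with the high lipid-associated macrophage markers, among them Spp1 at 182 scaled CPM and Trem2 at 62.8. The part of these cells in the level of Bcl6 was not tested. BCL6 is also found in B cells of germinal centres. Of 15 lymphocyte markers 14 were in the table, with a summed level of 332 to 422 scaled CPM in Flox and 326 to 596 in AdIGF1RKO, highest in AdIGF1RKO 2, where the immunoglobulin gene Ighm made up 576 of it. Their part in the level of Bcl6 was not tested.

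**Figure D3:**
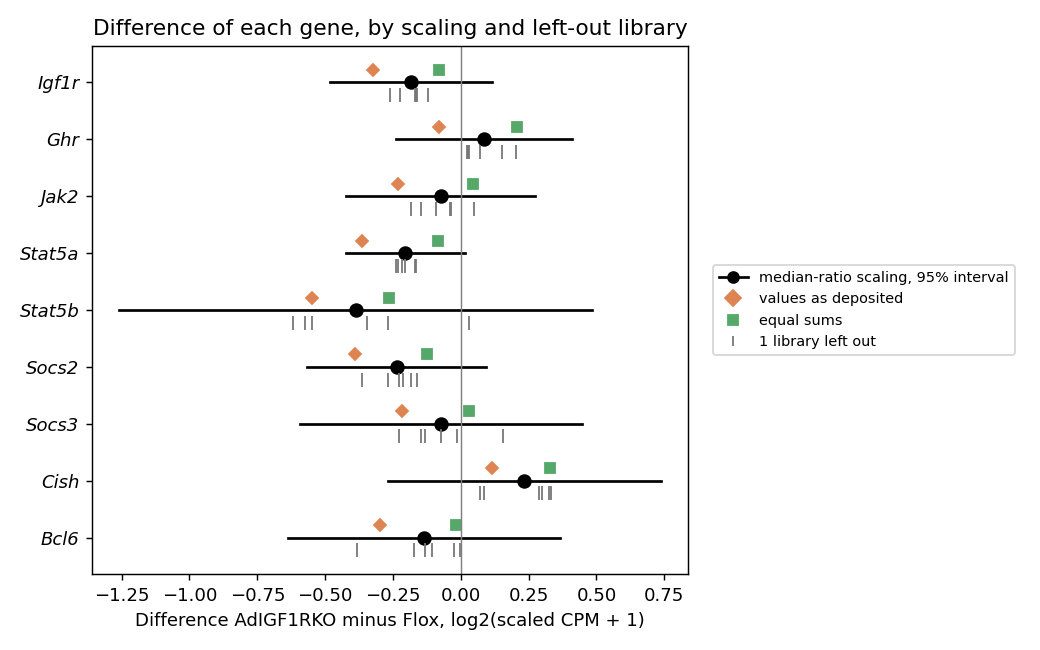
Difference AdIGF1RKO minus Flox on the log2(scaled CPM + 1) scale (x axis) for Igf1r and the 8 genes, with the 95% interval (black line), the value under 2 other scalings (orange diamond, green square) and with each library left out (grey ticks). Every interval includes 0, and the grey ticks of Stat5b reach from -0.62 to 0.03.

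Other components of JAK-STAT signalling were read as lists. All 8 other JAK kinases and STAT factors were tested, of which 3 had positive and 5 negative differences, with a median of -0.03, and 0 passed. Jak1 had 82.9 ± 5.15 scaled CPM in Flox mice and 84.2 ± 5.06 in AdIGF1RKO, and Stat3 had 72.5 ± 5.26 and 68.7 ± 5.98 (SD, n = 3 in each group here and below). Stat6, which carries interleukin 4 signals, had 59.4 ± 4.27 and 64.5 ± 5.08. Each of these 3 genes overlapped between the groups.

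Of 18 tested genes for other SOCS proteins, phosphatases and adaptors, 9 were positive and 9 negative, with a median of -0.02, and 0 passed. Pias1, an inhibitor of activated STATs, had 19.5 ± 1.71 scaled CPM in Flox mice and 16.3 ± 1.53 in AdIGF1RKO (log2 difference -0.25, limma unadjusted p = 0.0733). Ptpn11, which encodes the phosphatase SHP2, had 69.8 ± 2.94 and 77.6 ± 3.09. Its groups did not overlap, as for 4.41% of all tested genes with AdIGF1RKO higher. Cbl, a ubiquitin ligase, had 17.8 ± 2.19 and 20.1 ± 0.835, with a log2 difference of 0.17 that was 0.07 without Flox 3.

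Among 16 tested genes of other cytokine receptors, 9 were positive and 7 negative, with a median of 0.07 that was -0.01 without Flox 3, and 0 passed. Prlr, the prolactin receptor and nearest relative of Ghr in function, had 2.29 ± 0.737 scaled CPM in Flox mice and 2.66 ± 0.321 in AdIGF1RKO. Lifr, the receptor of leukaemia inhibitory factor, had 34.4 ± 3.50 and 36.9 ± 1.98. Csf2rb2 had 12.0 ± 1.88 and 13.4 ± 1.78, and its reads may be shared with its close copy Csf2rb. The log2 differences of Prlr, Lifr and Csf2rb2 were 0.17, 0.10 and 0.15. Without Flox 3 they were 0.02, 0.02 and 0.04.

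Genes known to be induced by growth hormone or STAT5 had differences of either sign. Of 17 tested genes 8 were positive and 9 negative, with a median of -0.05, and 0 passed. Igfals, which encodes the acid-labile subunit that holds IGF1 in the circulation, had 15.6, 20.6 and 20.5 scaled CPM in Flox mice and 21.4, 31.8 and 31.0 in AdIGF1RKO. All AdIGF1RKO values of Igfals lay above all Flox values, by a small margin for AdIGF1RKO 1. Its log2 difference was 0.54 (standard error 0.19; limma, unadjusted p = 0.0266, adjusted p = 0.998). Igf1 had 131, 160 and 119 in Flox and 123, 184 and 179 in AdIGF1RKO, which overlapped, with a log2 difference of 0.23 (standard error 0.19).

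The cell cycle gene Ccnd2 had 40.9 ± 5.99 scaled CPM in Flox mice and 48.6 ± 0.988 in AdIGF1RKO without overlap (log2 difference 0.25, limma unadjusted p = 0.0784). Aox1, an aldehyde oxidase known as a STAT5A target in adipocytes, had 53.4 ± 4.28 and 46.2 ± 6.34. Pdk4, the pyruvate dehydrogenase kinase and another STAT5 target of adipocytes, had 229, 164 and 461 in Flox and 158, 171 and 241 in AdIGF1RKO. Its 2 highest values were those of Flox 3 and AdIGF1RKO 3, and its log2 difference was -0.47, or -0.05 without Flox 3.

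Genes known to be lowered by growth hormone in fat had 7 positive and 2 negative differences among 9 tested, with a median of 0.10 that was 0.01 without Flox 3, and 0 passed. Scd1, a fatty acid desaturase, had 9623, 10488 and 8229 scaled CPM in Flox mice and 11892, 14328 and 10824 in AdIGF1RKO, with all AdIGF1RKO values above all Flox values (log2 difference 0.38, standard error 0.17, limma unadjusted p = 0.0633). Fasn, the fatty acid synthase, had 1002 ± 272 and 1485 ± 924, and its log2 difference of 0.44 was -0.04 without AdIGF1RKO 2. Hsd11b1, which regenerates active glucocorticoid, had 230 ± 16.1 and 217 ± 33.7.

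Genes known to be repressed by BCL6 had 9 positive and 4 negative differences among 13 tested, with a median of 0.17, and 0 passed. Without Flox 3 that median was -0.02. Ccl2, a chemokine that draws monocytes, had 11.4, 6.10 and 3.999 scaled CPM in Flox mice and 11.6, 26.2 and 14.9 in AdIGF1RKO. The groups of Ccl2 did not overlap, although Flox 1 and AdIGF1RKO 1 were nearly level, and the highest value was in AdIGF1RKO 2, where Bcl6 was also highest. Its log2 difference was 1.21 (standard error 0.41; limma, unadjusted p = 0.0226, adjusted p = 0.998), and without AdIGF1RKO 2 it was 0.90. Cd44, an adhesion receptor, had 12.7 ± 2.56 and 19.9 ± 8.16, with a log2 difference of 0.56 that was 0.26 without AdIGF1RKO 2.

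Around Socs3, 10 tested genes of interleukin 6, leptin and STAT3 signalling had 4 positive and 6 negative differences, with a median of -0.03. DESeq2 called 1 of them, the leptin gene Lep (DESeq2 adjusted p = 0.000675), against 0.178% of all genes it tested. Lep had 200, 277 and 159 scaled CPM in Flox mice and 396, 580 and 502 in AdIGF1RKO (log2 difference 1.23, limma adjusted p = 0.998). Glucocorticoid and fasting genes, listed because the mice were fasted, had 4 positive and 9 negative differences among 13 tested, with a median of -0.08. Zbtb16, a glucocorticoid target, had 99.8 ± 3.05 in Flox and 86.0 ± 9.19 in AdIGF1RKO without overlap. Sgk1, a kinase of the same response, had 123 ± 32.1 and 97.1 ± 3.67, with a log2 difference of -0.30 that was -0.12 without Flox 3. Of 20 tested immediate early genes 7 were positive and 13 negative, with a median of -0.04 that was -0.22 without Flox 3. Atf3 had 6.49 ± 1.498 and 11.7 ± 7.55, with a log2 difference of 0.63 that was 0.18 without AdIGF1RKO 2. Fosb had 2.23 ± 1.59 and 0.853 ± 0.598. Nr4a1 had 20.8 ± 16.4 and 9.82 ± 4.22, with a log2 difference of -0.80 that was -0.22 without Flox 3. None of these genes passed the limma test.

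**Figure D4:**
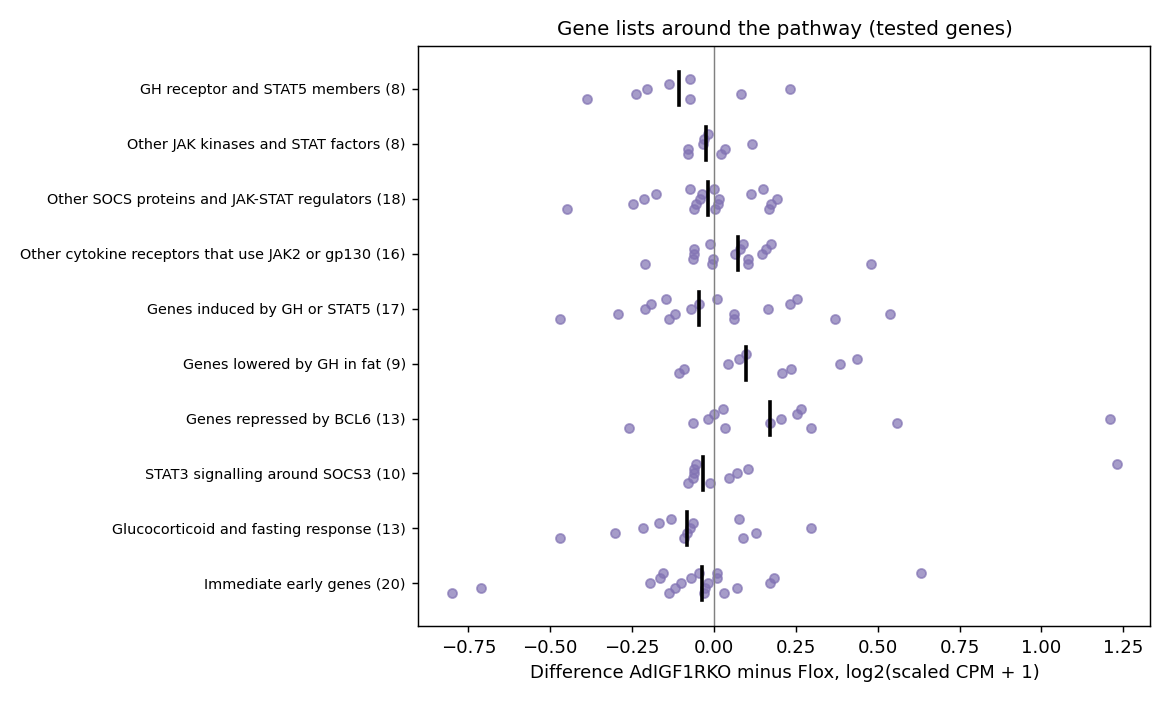
Difference AdIGF1RKO minus Flox on the log2(scaled CPM + 1) scale (x axis) of every tested gene in each list (y axis, number of tested genes in brackets), 1 point per gene, with the list's median as a black bar. List medians lie between -0.11 and 0.17, and the 2 points beyond 1 are Ccl2 and Lep.

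The members did not share one pattern over the 6 libraries. Pearson's r between members, on log2(scaled CPM + 1), ran from -0.82 for Socs3 and Cish to 0.93 for Jak2 and Stat5b. For Stat5a and Socs2 it was 0.82. For each member the genes with the most similar pattern were taken by the same r over the 6 libraries, among genes with a mean of at least 5. These correlations describe 6 libraries that share depth and tissue composition, and were picked as the highest of many. For Stat5b they were Det1 (r = 0.999), with 14.6 scaled CPM in Flox 3 and 6.25 to 8.60 elsewhere, and Smim13 (r = 0.998). For Jak2 they were Carnmt1 (r = 0.998), with 83.3 in Flox 3 and 33.9 in AdIGF1RKO 3 against 7.38 to 21.0 elsewhere, and Trim7 (r = 0.997). For Ghr they were Met (r = 0.99) and Nsd2 (r = 0.99), and for Bcl6 Slc25a32 (r = 0.99) and Gga3 (r = 0.98). Cish was nearest to Mrpl58 (r = 0.99) and St6galnac2 (r = 0.97), and Socs3 to Zfp157 (r = 0.98) and Gpsm1 (r = 0.97). Stat5a was nearest to Klhl9 (r = 0.98) and Tmem128 (r = 0.97), and Socs2 to Hddc3 (r = 0.97) and Rab6b (r = 0.96).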

How the data were processed

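Polyadenylated RNA of 6 inguinal fat samples, 3 per group, was sequenced from stranded libraries, per the labels' protocols. Build GRCm39 comes from the submitters' processing notes. No aligner, counter or annotation is given in the sources used here, and reference annotation of GRCm38 served only for promoter sequences and for which genes overlap. The authors deposited 1 table named as FPKM. Its signal values were, for 100% of entries within 0.5, whole reads times 1000000000 over a divisor per library, so the deposited signal is reads scaled by library and not by gene length. The lowest entry is 1 read. Reads were recovered and divided by median-ratio size factors (0.731 to 1.17). Such scaling was chosen because recovered reads over the divisor ranged from 0.864 to 1.55. Because the deposited unit is named FPKM, limma on log2(value + 1) was kept as the main test. Count tests on recovered reads were added as alternatives.

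limma 3.58.1 (R 4.3.3) with an intensity trend was fitted to 12993 genes with a mean of at least 1, leaving out 1868, with two-sided tests and Benjamini-Hochberg adjustment over all genes at 0.05. edgeR 4.0.16 and DESeq2 1.42.0 ran on recovered reads. Other alternatives were scaling, pseudocount, filter, left-out libraries, a replicate block and a muscle covariate. The limma script was tested on simulated data. The titles number the replicates and say no more of the animals, so p-values measure the spread between these samples. The members and lists were chosen with earlier results of these data known. Named genes are Igf1r, the members, up to 3 genes per list with the smallest p, and Igf1, Prlr, Jak1 and Stat3. Groups without overlap among genes named by p follow in part from that choice. They are to be read beside the shares of all tested genes without overlap, 3.86% lower and 4.41% higher in AdIGF1RKO. Spp1, Trem2 and Ighm were named after their values were seen. Some genes that the rule takes are left out of the text. Same-numbered libraries deviated together (correlations of 0.35, 0.35 and 0.83 across genes), which comes from the data and not from a stated litter or day, and 2 pairs with different numbers did so too: Flox 2 and AdIGF1RKO 1 (0.70) and Flox 1 and AdIGF1RKO 2 (0.33).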

Additional observations from a re-analysis of the deposited data

How the results depend on the processing

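The 8 genes and Igf1r were recomputed under 18 alternatives, which gave 161 values. None passed an adjusted p of 0.05 (lowest 0.724), 152 kept their direction and 9 changed it. Ghr was -0.080 under the authors' scaling, which put the median of all genes at -0.17. With equal library sums, which put that median at 0.09, Jak2 was 0.044 and Socs3 was 0.029. Relative to these medians, 6 of the 8 genes were lower and 2 higher under each scaling. Jak2 was 0.0015 with the muscle covariate. Leaving out each library in turn, Jak2 ranged from -0.18 to 0.050 (the latter without Flox 3), Stat5b from -0.62 to 0.030 (without Flox 3) and Socs3 from -0.23 to 0.16 (without Flox 1). Without Flox 3 and AdIGF1RKO 3, Ghr was -0.025 and Bcl6 was 0.026. The cause of these changes was not tested. Over all genes limma called 0, DESeq2 called 23, and the count was 0 to 1 when each library was left out in turn, the 1 arising without Flox 1.

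With the replicate block, 0 genes passed limma and 582 had an unadjusted p under 0.05, against 385 without the block, and no call among the members changed. Stat5a had -0.20 (adjusted p = 0.914) and Stat5b -0.39 with a standard error of 0.18. Cish, with 136 reads in one library, is the gene most limited by depth, and 3 mice a group leave intervals that are widest for Stat5b, Socs3, Cish and Bcl6. The mean of at least 5 removes Cish.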
